A study of Homo sapiens with 3 samples.

Results

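The lysosomal genes were examined in HT29 cells grown on chitosan. They are 38 genes chosen by name, of 21610 genes with a named probe on the array, and the naming rule used no measured value, although earlier results of these data were known when it was set. They encode 8 cysteine cathepsins, 3 aspartic and serine peptidases, 11 glycosidases, 3 sulfatases, 4 proteins of lipid degradation, 2 proteins of cholesterol export, 5 proteins of the lysosomal membrane, the regulator TFEB and the autophagy receptor SQSTM1. HT29 is an established cell line from a human adenocarcinoma of the colon, kept in serum-containing medium. Cells were seeded on tissue culture polystyrene (TCP, labelled 2D), on membranes of chitosan (CS), or on chitosan membranes to which hyaluronan had been crosslinked (CSHA, labelled chitosan_HA), with no other treatment and no genetic change named. Total RNA of each culture was labelled with Cy3 and hybridized to 1 array, and the 3 arrays lay on 1 slide, so n = 1 per substrate. No replicate stands behind any difference, array and substrate cannot be told apart, and no p-value is given. The question was how growth on either membrane, compared to TCP, altered the levels of these transcripts.

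Lysosomes are acidic compartments in which hydrolases degrade proteins, glycans, lipids and nucleic acids that arrive by endocytosis or autophagy. Most soluble enzymes receive a mannose 6-phosphate tag in the Golgi and are carried to the lysosome by receptors, the V-ATPase pumps the protons that keep the lumen acidic, and heavily glycosylated membrane proteins such as LAMP1 line the inside. The transcription factor TFEB, which mTORC1 holds in the cytoplasm by phosphorylation, activates many lysosomal genes through a promoter motif (the CLEAR element) built on an E-box. Several cathepsins are also secreted by tumor cells and cut extracellular matrix.

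Promoter sequence from RefSeq (GRCh38.p14) was matched for 28 of the 38 genes. Windows from 250 bases before to 50 bases after each start were searched for the E-box CACGTG and for the longer CLEAR core TCACGTGA; each motif reads the same on both strands, and every CLEAR core contains an E-box. A gene counted when any of its windows held the motif. Genes with several starts, such as CD63 and ARSB, thus had more sequence to match, and the number of windows per gene was not matched. An E-box stood in the windows of 9 of the 28 lysosomal genes, or 32.1%, against 10.9% of 15843 protein-coding genes. The CLEAR core stood in 4 of the 28, or 14.3%, against 1.65% of protein-coding genes. These 4 were LAMP1, GAA, MCOLN1 and CTSA. The 250 bases before the start are shown for them because TFEB acts through this motif, for CTSD, which has an E-box without the longer core, and for CTSZ, which has neither and differed most between substrates. Capitals mark the CLEAR core or, where the core is incomplete, the E-box. The windows lie at LAMP1, chr13:113296989-113297238, plus strand, GAA, chr17:80101331-80101580, plus strand, MCOLN1, chr19:7522374-7522623, plus strand, CTSA, chr20:45891085-45891334, plus strand, and CTSD, chr11:1763928-1764177, minus strand. The CTSZ window lies at chr20:59007255-59007504, minus strand. LAMP1 has 5 E-boxes in the stretch shown, of which 1 is part of a CLEAR core, and GAA and MCOLN1 have 2 CLEAR cores each.
LAMP1: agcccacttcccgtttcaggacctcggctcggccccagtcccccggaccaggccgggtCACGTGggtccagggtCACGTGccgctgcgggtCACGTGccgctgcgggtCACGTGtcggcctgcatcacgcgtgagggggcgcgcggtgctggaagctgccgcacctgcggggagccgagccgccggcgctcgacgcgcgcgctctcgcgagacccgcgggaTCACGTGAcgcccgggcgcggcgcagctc
GAA: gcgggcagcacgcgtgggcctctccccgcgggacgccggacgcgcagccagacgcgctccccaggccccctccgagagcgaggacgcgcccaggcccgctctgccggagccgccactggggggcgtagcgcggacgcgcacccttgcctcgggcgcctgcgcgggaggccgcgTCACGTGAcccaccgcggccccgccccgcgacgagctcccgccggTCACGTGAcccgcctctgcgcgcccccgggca
MCOLN1: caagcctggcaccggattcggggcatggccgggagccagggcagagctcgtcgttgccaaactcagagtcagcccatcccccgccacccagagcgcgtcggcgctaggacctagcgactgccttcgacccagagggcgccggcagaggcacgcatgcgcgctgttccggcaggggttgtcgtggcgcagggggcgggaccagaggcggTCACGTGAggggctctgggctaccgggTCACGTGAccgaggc
CTSA: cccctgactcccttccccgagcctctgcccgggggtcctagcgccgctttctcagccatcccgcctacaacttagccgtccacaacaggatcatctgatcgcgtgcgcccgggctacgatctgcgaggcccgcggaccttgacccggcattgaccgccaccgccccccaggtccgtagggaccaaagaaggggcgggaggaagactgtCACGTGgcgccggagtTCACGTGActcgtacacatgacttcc
CTSD: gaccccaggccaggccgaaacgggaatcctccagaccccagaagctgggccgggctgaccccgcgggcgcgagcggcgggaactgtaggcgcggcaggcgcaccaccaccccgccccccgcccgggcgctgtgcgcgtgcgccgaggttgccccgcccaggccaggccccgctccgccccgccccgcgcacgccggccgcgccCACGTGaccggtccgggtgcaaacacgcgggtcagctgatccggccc
CTSZ: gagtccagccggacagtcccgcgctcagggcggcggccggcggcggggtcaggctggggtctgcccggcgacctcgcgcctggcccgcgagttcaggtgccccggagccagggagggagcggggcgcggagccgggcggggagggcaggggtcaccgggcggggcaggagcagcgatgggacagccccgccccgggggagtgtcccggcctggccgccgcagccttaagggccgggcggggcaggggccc

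Signals below are the processed (background-corrected) intensities of the scanner software. Differences are on the log2 scale after each array was shifted by its 75th percentile, which was 354 (TCP), 423 (CS) and 337 (CSHA), so a ratio of the printed signals is not the normalized fold. A log2 difference of 1 is a 2-fold change. The ± beside a difference is the spot spread: the SD to be expected of a difference between single spots, taken from the 50 probes nearest in brightness that were spotted repeatedly. It covers spot noise within an array and not the variation between cultures. Probes well above background made up 48.6% (TCP), 51.1% (CS) and 49.9% (CSHA) of all probes, and 0 spots were saturated. Of 12 markers of colon epithelium, 11 were above background on TCP and 12 on each membrane. Levels of different probes are not compared. In bulk RNA, fewer cells of a type and less RNA per cell cannot be told apart.

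As a group, the lysosomal genes lay close to all other genes on both membranes, and CTSZ stood apart from the rest. CTSF, a cysteine cathepsin, was not well above background on any array, which left 37 members compared with TCP. On CS, 23 of the 37 were higher and 14 lower than on TCP (62.2% higher), against 56.8% of all genes compared. The median log2 difference was 0.10, whereas the median of 14462 genes was 0.04. On CSHA, 20 were higher and 17 lower (54.1% higher), against 61.7% of all genes compared. The median there was 0.07, and the median of 14624 genes was 0.13. Between the membranes, 34 members had a value for CSHA minus CS, with a median of 0.03 against 0.07 for 14597 genes. Without CTSZ the median was 0.10 for CS and 0.04 for CSHA. The CS and CSHA differences share the TCP array.

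Few members passed 2-fold. On CS, CTSZ rose and CTSS fell by at least 2-fold, where 1.36% of all genes compared were that much higher and 1.92% that much lower. On CSHA, CTSZ rose and 0 members fell, against 3.02% of genes higher and 3.98% lower. Between the membranes CTSZ was the single member at least 2-fold higher on CSHA and 0 were lower, against 2.27% and 2.15% of genes. At 1.5-fold, 1 member rose and 3 fell on CS, where the shares of all genes were 4.11% and 5.03%. Of these 3, CTSS and SMPD1 were above background on TCP alone, so their values are bounds. The other, ARSB, was dim on both arrays. On CSHA, 2 rose and 4 fell at 1.5-fold, where 11.5% of genes were higher and 11.2% lower. From CS to CSHA, 1 rose and 1 fell, against 7.68% and 7.33% of genes. Read against these shares, the counts do not set the lysosomal genes apart from the array as a whole.

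**Figure D1:**
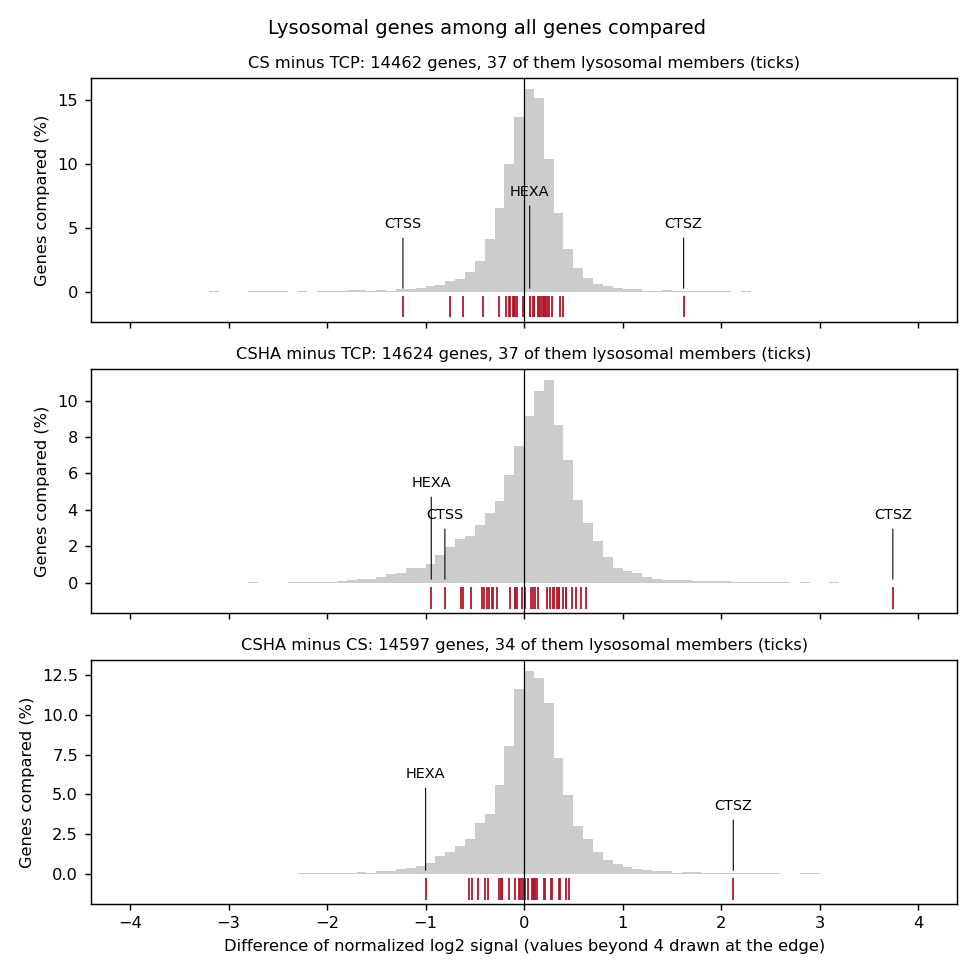
Distribution of the log2 differences of all genes compared (grey bars, percent of genes per bin of the histogram) with the lysosomal genes as red ticks under each axis; n = 1 array per substrate. Most ticks lie within the body of the distribution, while CTSZ stands at 1.62, 3.74 and 2.12 in the panels for CS minus TCP, CSHA minus TCP and CSHA minus CS.

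CTSZ (cathepsin Z, also called cathepsin X), a cysteine carboxypeptidase that is also secreted and binds integrins, rose on both membranes. TCP gave a signal of 1722, CS of 6318 and CSHA of 21982. The level was lowest on TCP, intermediate on CS and highest on CSHA. The log2 difference from TCP was 1.62 ± 0.06 on CS (3.07-fold) and 3.74 ± 0.06 on CSHA (13.4-fold), and CSHA exceeded CS by 2.12 ± 0.06 (4.36-fold). Each difference was many times the spot spread. Among genes measured on both arrays of a comparison, CTSZ ranked 17 of 13639 from the highest on CS, 2 of 13527 on CSHA and 7 of 13836 for CSHA minus CS. The gene had 1 probe, with 1 spot on each array, and none of the spots carried an outlier or saturation flag. The scanner software gave each of these signals an error close to 10%. Over all alternative settings the log2 difference lay between 1.57 and 1.67 for CS and between 3.69 and 4.17 for CSHA.

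No other cysteine cathepsin reached 1.5-fold in the direction of CTSZ, although CTSB, CTSH and CTSO were also above TCP on both membranes. CTSB, an abundant endo- and exopeptidase linked to matrix degradation, had signals of 2134 on TCP, 2717 on CS and 2495 on CSHA. Its log2 difference was 0.09 ± 0.06 on CS and 0.30 ± 0.07 on CSHA, below 1.5-fold on both membranes. CTSH, an aminopeptidase, was at 0.24 and 0.35, and CTSO, a little-studied family member, was at 0.29 and 0.40 on CS and CSHA. CTSL, a broad endopeptidase, was at -0.10 and -0.36. CTSC, which activates serine proteases of immune cells, was at -0.18 and -0.09. The median of the 7 cysteine cathepsins compared was 0.09 on CS and 0.30 on CSHA.

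CTSS, a cathepsin known mainly from antigen-presenting cells, was the member that fell most on CS. It gave a signal of 41.5 on TCP, where it was above background, and 4.61 on CS and 4.93 on CSHA, where it was not. The difference is therefore a bound: at least 2.35-fold lower on CS (log2 -1.23) and at least 1.75-fold lower on CSHA (log2 -0.80). The TCP signal was itself near the lowest signal well above background on that array, 24.1. The 2-fold call on CS was lost with normexp background correction, where the bound was -0.81, and with the deposited values, where it was -0.96. On CSHA the bound fell short of 1.5-fold with normexp, at -0.48, and with scaling to spike-in probes, at -0.37. Of 10 leukocyte markers on the array, 5 (TCP), 4 (CS) and 5 (CSHA) were above background, and their summed signal was 1344, 1860 and 2156. CD163, CSF1R, ITGAM, CD74 and MS4A1 were not above background on any array. CD14 had signals of 834, 1408 and 1633, whereas CD3E was at 122 on TCP, 20.6 on CS, where it was not above background, and 34.4 on CSHA. The part of these markers in the CTSS difference was not tested.

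**Figure D2:**
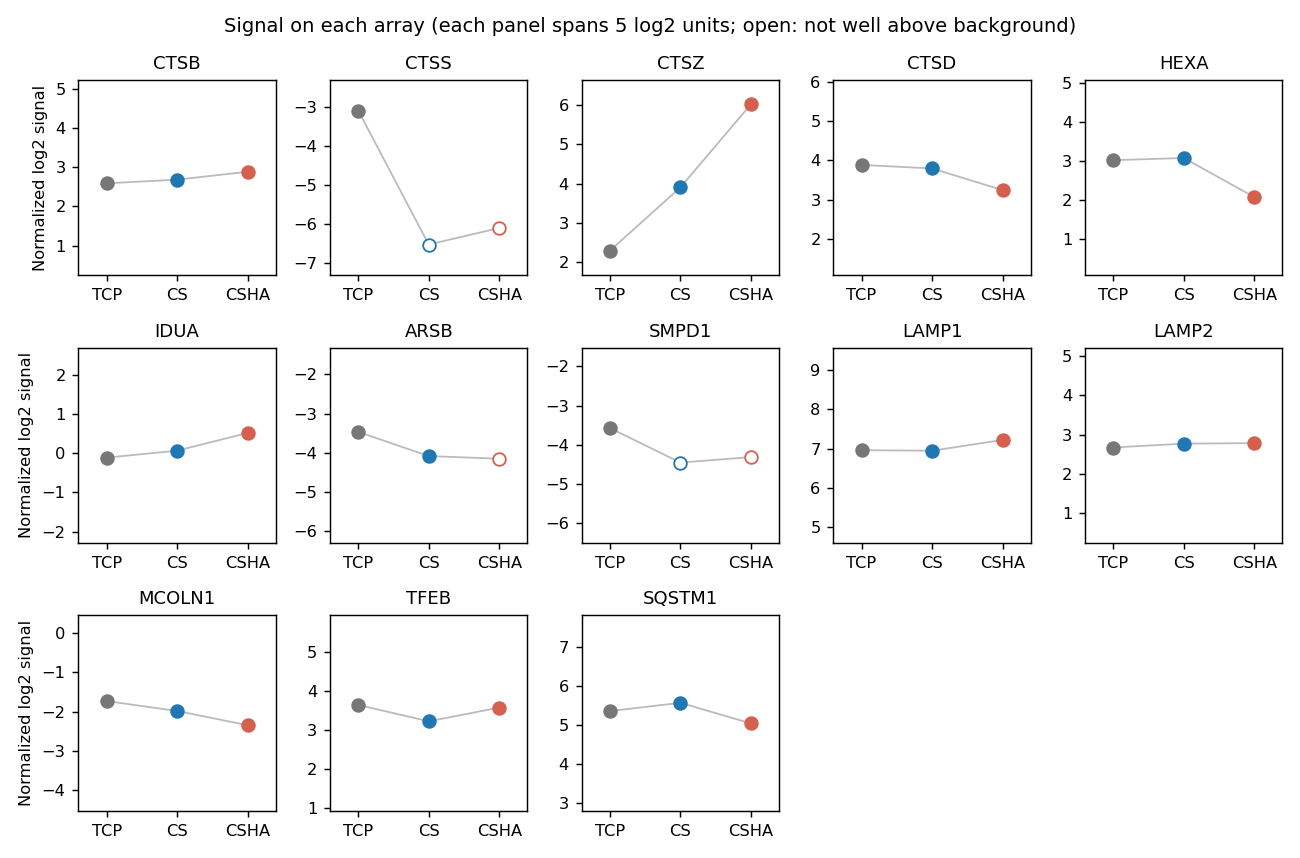
Normalized log2 signal on the TCP, CS and CSHA arrays (1 array each) for the 13 members described in full; every panel spans the same log2 range, and open symbols mark spots not well above background. CTSZ climbs from TCP to CSHA, HEXA and CTSD drop on CSHA alone, and CTSB, LAMP1 and the brightest LAMP2 probe stay nearly level.

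The aspartic and serine peptidases were near the TCP level on CS, and 2 of the 3 were lower on CSHA. CTSD (cathepsin D), the main aspartic protease of lysosomes, had signals of 5231 on TCP, 5865 on CS and 3187 on CSHA. CS was close to TCP, at -0.09 ± 0.06, whereas CTSD fell by 0.65 ± 0.07 (log2) on CSHA, or 1.56-fold. CTSA, the carboxypeptidase that protects NEU1 and GLB1 in a complex, had differences of 0.07 (CS) and -0.41 (CSHA), and its dimmer probe was at -0.08 and -0.66. TPP1, a tripeptidyl peptidase, was at 0.15 and 0.09. CTSA was also the median of these 3 genes in both comparisons. With scaling to spike-in probes, which moved the median of all genes on CSHA from 0.13 to 0.56, CTSD was at -0.22 and CTSA at 0.02, so the lower values on CSHA hold relative to the other genes of the array.

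The glycosidases, which remove terminal sugars from glycans and glycolipids, were slightly above TCP on CS in 10 of 11 cases, with a median of 0.16 and a range from -0.07 (MANBA) to 0.22 (GAA). None reached 1.5-fold there. Over all genes the percentage above TCP on CS was 56.8%. On CSHA, 8 of 11 were higher, with a median of 0.23, and the values spread from -0.94 to 0.63. The share of all genes above TCP on CSHA was 61.7%.

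HEXA and IDUA marked the ends of that spread. HEXA, a hexosaminidase gene whose enzyme cleaves GM2 ganglioside, had signals of 2870 on TCP, 3564 on CS and 1423 on CSHA. TCP and CS were level, with a difference of 0.06 ± 0.06, whereas on CSHA HEXA fell by 0.94 ± 0.07 against TCP (1.92-fold) and was 1.999-fold lower than on CS, just short of the 2-fold size. With spike-in scaling HEXA was at -0.51 against TCP, which ended its 1.5-fold call, and at -0.62 against CS. It ranked 528 of 13527 genes from the lowest for CSHA minus TCP and 211 of 13836 for CSHA minus CS.

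IDUA, which removes iduronic acid from heparan and dermatan sulfate, had signals of 328 (TCP), 443 (CS) and 484 (CSHA). The difference was 0.18 ± 0.09 on CS, and on CSHA IDUA rose by 0.63 ± 0.09, or 1.55-fold. That call was lost with normexp, at 0.52, with the deposited values, also at 0.52, and with the 75th percentile over detected probes, at 0.57. GAA, the acid alpha-glucosidase that degrades glycogen, lay just outside the 1.5-fold size at 0.58 ± 0.07, or 1.49-fold, on CSHA.

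Of the remaining glycosidases, GLB1 (beta-galactosidase) was at 0.10 (CS) and 0.53 (CSHA), and NAGLU, which acts on heparan sulfate, was at 0.21 and 0.42. FUCA1 and GUSB, a fucosidase and a glucuronidase, were spotted 10 times on each array. FUCA1 was at 0.20 and 0.33, with a standard error over spots of 0.02 for both. GUSB was at 0.10 and 0.14, with a standard error of 0.02 on CS and 0.01 on CSHA. These differences exceeded the spot error but were below 1.5-fold. The mannosidase MAN2B1 was at 0.15 and 0.23, GLA (alpha-galactosidase) at 0.16 and 0.07, the sialidase NEU1 at 0.20 and -0.02, and the beta-mannosidase MANBA at -0.07 and -0.09. CTSA, NEU1 and GLB1, which form a complex in the lysosome, were at -0.41, -0.02 and 0.53 on CSHA.

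**Figure D3:**
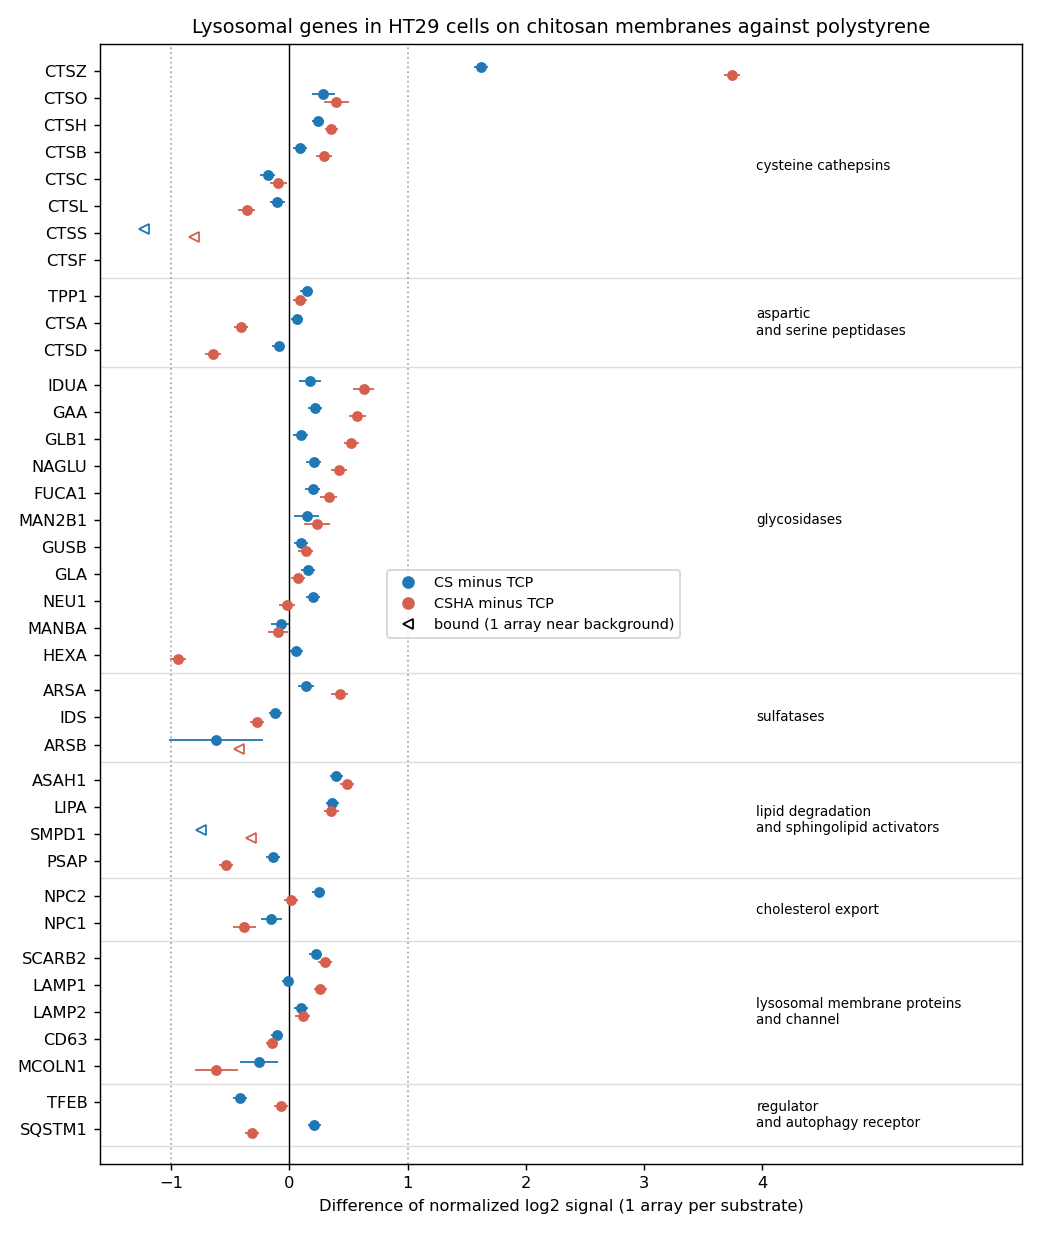
Log2 difference from TCP of each lysosomal gene on CS (blue) and CSHA (red), grouped by role, with bars for the spot spread (1 array per substrate), dotted lines at 2-fold and open triangles for bounds. CTSF has no symbol because it was not above background; CTSZ alone lies beyond the right dotted line, at 1.62 and 3.74, and CSHA values are more scattered than CS values.

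The enzymes that act on hyaluronan or on chitin-type sugars were read together because both membranes consist of chitosan and CSHA also carries hyaluronan. Their action on the membranes was not tested. CTBS (chitobiase), which splits the reducing-end N-acetylglucosamine pair of N-glycans, had signals of 815 on TCP, 1372 on CS and 1473 on CSHA. It was at 0.50 on CS and rose by 0.92 on CSHA. HYAL1, the lysosomal hyaluronidase, had signals of 99.8, 149 and 144, and was at 0.32 on CS and rose by 0.60 on CSHA. HYAL2, the hyaluronidase anchored at the cell surface, was at -0.04 and 0.28. The exoglycosidases GUSB and HEXA had values of 0.14 and -0.94 on CSHA. Thus these genes did not share 1 direction on CSHA, where HEXA alone of those named was below TCP.

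The sulfatases differed among themselves. ARSA (arylsulfatase A) had differences of 0.14 (CS) and 0.43 (CSHA). IDS, the iduronate sulfatase, was at -0.12 and -0.27. ARSB, which acts on dermatan and chondroitin sulfate, was dim, with signals of 32.0 (TCP), 24.9 (CS) and 18.9 (CSHA), the last not above background. On CS it fell by 0.62 ± 0.40 and was lower on CSHA by at least 1.34-fold (log2 -0.43). The spot spread of so dim a probe was large. The CS difference fell short of 1.5-fold with normexp (-0.38), the deposited values (-0.45), quantile normalization (-0.51) and spike-in scaling (-0.56).

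Among the proteins of lipid degradation, ASAH1 (acid ceramidase) was at 0.40 (CS) and 0.49 (CSHA), and LIPA (lysosomal acid lipase), which frees cholesterol and fatty acids, was at 0.36 on both. PSAP, the precursor of the saposins that present sphingolipids to their hydrolases, was at -0.14 and -0.54. SMPD1 (acid sphingomyelinase) had signals of 29.7 (TCP), 19.2 (CS) and 16.9 (CSHA), and only the TCP spot was well above background. Taking the TCP signal as given, SMPD1 was lower by at least 1.68-fold on CS (log2 -0.75) and 1.25-fold on CSHA (log2 -0.32). The spot spread of so dim a probe was 0.50 on CS and 0.56 on CSHA, and the CSHA bound lay within it. The CS bound was -0.33 with normexp and -0.36 with the deposited values. The cholesterol transporters were at -0.15 and -0.38 for NPC1, which carries cholesterol out through the membrane, and at 0.25 and 0.01 for NPC2, which hands cholesterol to it. NPC1 was spotted 10 times and its standard error over spots was 0.03 on either membrane.

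By their brightest probes, the structural proteins of the lysosomal membrane stayed near their TCP level. LAMP1, a main glycoprotein of this membrane, had signals of 44041 on TCP, 52065 on CS and 50309 on CSHA, with differences of -0.01 ± 0.05 and 0.26 ± 0.05. The CS value was within the spot spread. LAMP2, its relative with roles in autophagy, had signals of 2252, 2879 and 2319 and was at 0.10 ± 0.06 and 0.11 ± 0.07. CD63, a tetraspanin of late endosomes and exosomes, was at -0.10 and -0.15, and SCARB2, the receptor that brings glucocerebrosidase to lysosomes, at 0.23 and 0.30. None of these 4 genes reached 1.5-fold on either membrane.

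MCOLN1 (TRPML1), the calcium channel of the lysosomal membrane, had signals of 106.5 (TCP), 106.6 (CS) and 66.2 (CSHA), and CSHA was the lowest of the arrays. MCOLN1 was at -0.25 ± 0.16 on CS and on CSHA fell by 0.62 ± 0.18, or 1.53-fold. That call was lost with normexp, at -0.30, with the deposited values, at -0.34, and with spike-in scaling, at -0.19.

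The regulator TFEB did not pass 1.5-fold on either membrane. Its brighter probe had signals of 4433 on TCP, 3960 on CS and 4029 on CSHA, with differences of -0.42 ± 0.06 and -0.07 ± 0.06. The dimmer probe, for another RefSeq transcript, was at -0.02 on CS and 0.49 on CSHA. The probes thus disagreed, and the direction of TFEB on CSHA depended on the probe. SQSTM1 (p62), the receptor that links ubiquitinated cargo to autophagosomes and is itself degraded there, had signals of 14541, 20087 and 11135. It was at 0.21 ± 0.06 on CS and -0.32 ± 0.06 on CSHA.

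The genes whose promoters hold the motifs shown above did not move as a block. Of the 9 genes with an E-box, 8 were compared with TCP. On CS, 3 were higher and 5 lower, with a median of -0.05, against 0.15 for the 19 genes without an E-box. Of all genes, 56.8% were above TCP on CS. On CSHA, 2 were higher and 6 lower, with a median of -0.28, against 0.09, and 61.7% of all genes were above TCP. Of the 6 lower genes, ARSB rests on a bound. With spike-in scaling, which raised all genes on CSHA, CTSA, NEU1 and CD63 of these 6 were above TCP, at 0.02, 0.41 and 0.28. The 4 genes with a CLEAR core were at -0.01 (LAMP1), 0.22 (GAA), -0.25 (MCOLN1) and 0.07 (CTSA) on CS. On CSHA the same genes were at 0.26, 0.58, -0.62 and -0.41. CTSD, with an E-box alone, was at -0.65 on CSHA. A match of letters is a description of the window and not evidence of binding.

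Further genes of the lysosomal pathway were grouped into 7 lists. Of 32 other hydrolases and activators, 30 were compared, and 21 were above TCP on either membrane, or 70%, against 56.8% of all genes on CS and 61.7% on CSHA. The medians were 0.10 and 0.20. On CS 0 reached 2-fold, against 1.36% of all genes higher and 1.92% lower. On CSHA 1 of the 30 rose and 3 fell at this size, against 3.02% and 3.98% of all genes. ACP5, an acid phosphatase, was dim on TCP, with signals of 53.6 (TCP), 124 (CS) and 140 (CSHA). It was at 0.96 ± 0.20 on CS and rose by 1.46 ± 0.21 on CSHA. GALNS, a sulfatase of keratan sulfate, was at -0.16 on CS and fell by 1.29 on CSHA. MAN2B2, an alpha-mannosidase, was at -0.41 and fell by 1.33. LGMN (legumain), the asparaginyl endopeptidase that processes cathepsins, was at 0.04 and fell by 1.05. LGMN gave signals of 1032 (TCP), 1268 (CS) and 475 (CSHA). In GALNS and LGMN, as in HEXA, CS was close to TCP and CSHA was lower.

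Of 25 other membrane proteins, 23 were compared on CS and 24 on CSHA, with medians of 0.15 and 0.11. On CSHA 2 rose and 1 fell by at least 2-fold, against 3.02% and 3.98% of all genes. CD68, a LAMP family glycoprotein best known from macrophages, had signals of 119 (TCP), 248 (CS) and 228 (CSHA). It was at 0.80 ± 0.13 on CS and rose by 1.01 ± 0.14 on CSHA, just past the 2-fold size. The leukocyte markers are given with CTSS, and their part was not tested. LITAF, a protein of late endosomes, was at 0.51 and rose by 1.16. CLN3, whose loss causes a neuronal storage disease, was at -0.23 and fell by 1.13.

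The V-ATPase subunits were centred on the TCP level. Of 18 subunits compared, 9 were higher and 9 lower on both membranes, with medians of 0.00 on CS and 0.02 on CSHA. The share above TCP was thus 50%, against 56.8% of all genes on CS and 61.7% on CSHA. On CSHA 3 of the 18 subunits fell by at least 2-fold and 0 rose, against 3.98% of all genes lower and 3.02% higher. ATP6V0E1, ATP6V0E2 and ATP6V1E1 were at -0.39, -0.24 and -0.44 on CS and fell by 1.38, 1.36 and 1.26 on CSHA. ATP6V0E1 had signals of 6322, 5743 and 2307, so it was bright on all arrays. With spike-in scaling the 7 genes of these lists that fell at least 2-fold on CSHA were between -0.96 and -0.62, and 0 of them passed 2-fold. The other subunits lay between -0.49 and 0.41 on CSHA.

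The sorting machinery of the mannose 6-phosphate and sortilin pathway had medians of 0.04 (CS) and 0.23 (CSHA) over 18 genes compared. In this list 0 genes reached 2-fold, a count that such small shares of all genes make uninformative. These shares were 1.36% higher and 1.92% lower on CS, and 3.02% and 3.98% on CSHA. Of 12 cathepsin inhibitors on the array, 5 were compared, with medians of 0.16 and -0.03. CST6 (cystatin E/M), an inhibitor of legumain and cysteine cathepsins, had signals of 249 on TCP, 125 on CS and 210 on CSHA. It fell by 1.25 on CS and was at -0.18 on CSHA. It was thus low on CS alone.

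TFEB relatives and mTORC1 components at the lysosome had medians of 0.06 and 0.19 over 19 genes, with 0 at 2-fold. The shares of all genes at 2-fold were 1.36% higher and 1.92% lower on CS, and 3.02% and 3.98% on CSHA. The medians of the autophagy genes were 0.19 (CS) and 0.27 (CSHA). Of 26 compared, 22 were above TCP on CS (84.6%, against 56.8% of all genes) and 17 on CSHA (65.4%, against 61.7%). On CSHA 2 of the 26 rose by at least 2-fold and 0 fell, against 3.02% and 3.98% of all genes. At 1.5-fold 7 rose and 1 fell, against 11.5% and 11.2%. WIPI1, which marks the forming autophagosome, was at 0.69 on CS and rose by 1.05 on CSHA. OPTN, an autophagy receptor like SQSTM1, was at 0.54 and rose by 1.02. With 1 array per substrate these lists carry no test, and their medians stand beside those of all genes, 0.04 on CS and 0.13 on CSHA.

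**Figure D4:**
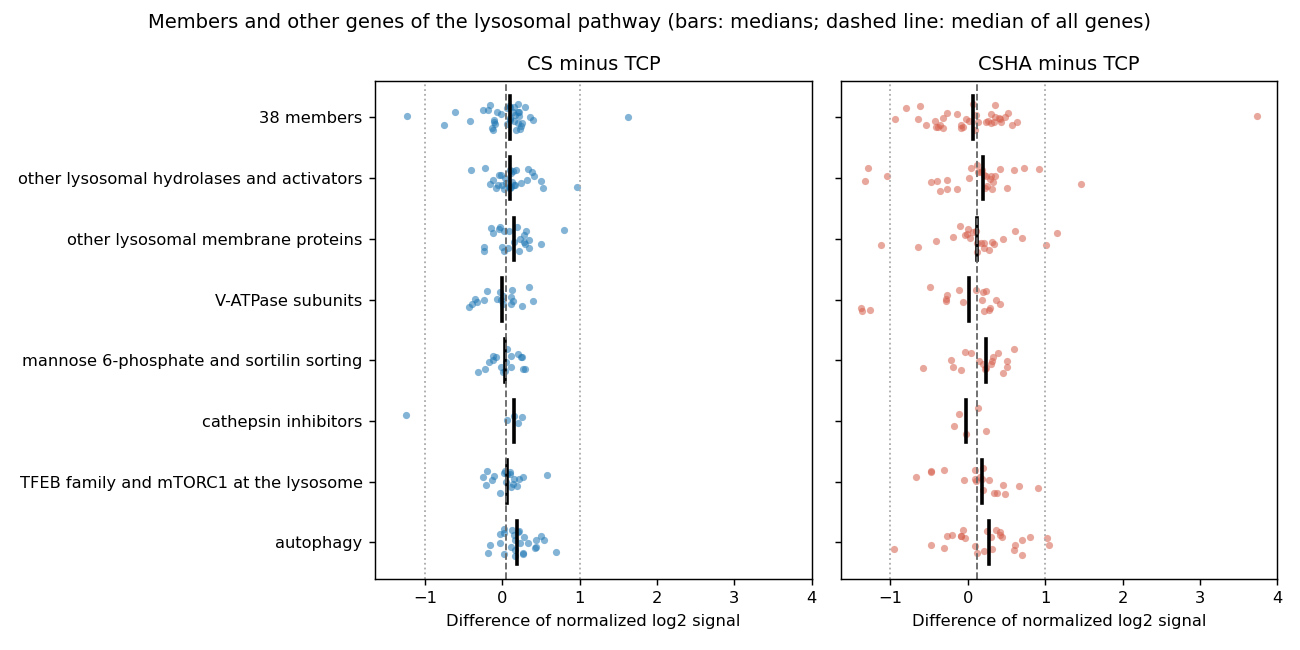
Log2 difference from TCP on CS (left) and CSHA (right) for the lysosomal genes and 7 further lists of the pathway; each point is a gene (1 array per substrate), black bars are list medians, the dashed line is the median of all genes and dotted lines mark 2-fold. List medians stay near the dashed line, and the 3 V-ATPase subunits that fell on CSHA stand apart from the other subunits.

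Most members rest on 1 probe. Of the 38 genes, 31 had 1 probe and 7 had more, and the brightest probe was used. On CS, all probes of a gene were on the same side of TCP for 4 of these 7 genes, and the widest gap between probes was 0.40, in TFEB. On CSHA they were on the same side for 6 of the 7, with a widest gap of 0.56, again in TFEB. A second probe for IDS was at -0.80 on CSHA, against -0.27 for the brighter probe, and a second probe for PSAP was at -0.07, against -0.54. One of the dimmer CTSC probes was at -0.61 on CSHA, against -0.09. Over all genes with 2 measured probes, the median gap was 0.18 for CS minus TCP (2841 genes) and 0.33 for CSHA minus TCP (2811 genes). The gap exceeded 0.5 in 9.40% of genes on CS and in 33.3% on CSHA. Differences on CSHA therefore depended more on the probe than differences on CS, and members with 1 probe, CTSZ, HEXA, CTSD and MCOLN1 among them, have no second probe to set beside them.

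**Figure D5:**
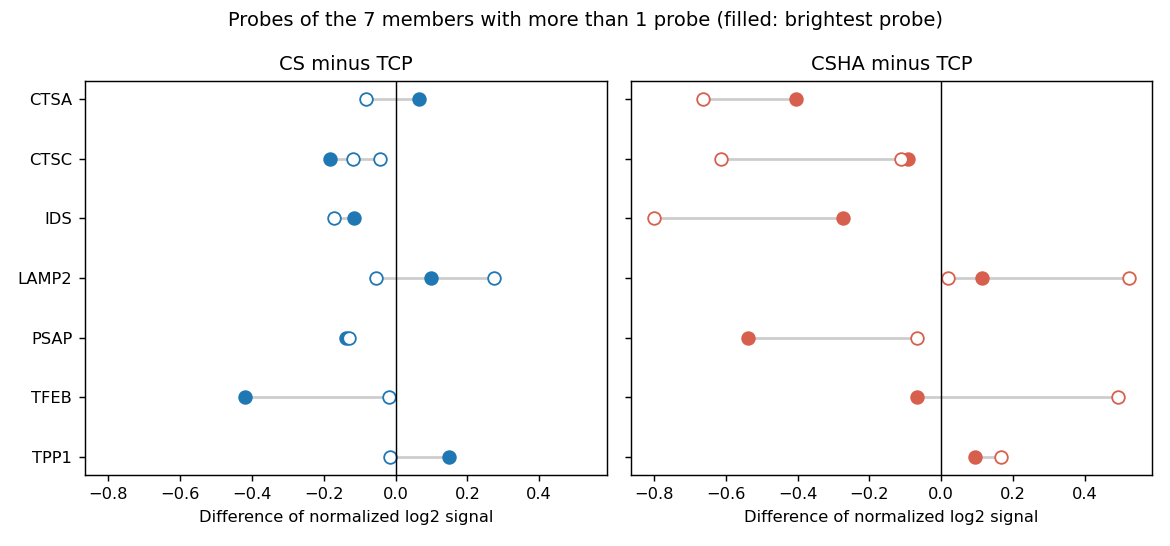
Log2 difference from TCP of every probe of the 7 members with more than 1 probe, on CS (left) and CSHA (right); filled symbols are the brightest probe, open symbols the others, and a grey line joins the probes of a gene. Probes lie further apart on CSHA, where the gap reaches 0.56 in TFEB.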

How the data were processed

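Per-spot intensity values were deposited by the authors straight from the scanner software, with flags (Feature Extraction 10.7.3.1 per the file headers, while the methods give a different version). They also deposited a table of log2 values, which equal the log2 median signal plus a constant for each spot and for each array (within 1e-06 at all 62976 spots), so the zero point and any centring of single genes are unknown. The median deposited value was 0.01 (TCP), -0.13 (CS) and 0.04 (CSHA). No column was left without a sample (0 columns).

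Here the processed intensity, raised to a floor of 1, was put on the log2 scale, averaged over the spots of a probe without outlier flags and brought to a common 75th percentile (non-control probes), as the methods state for the raw signal. Accessions were named through a RefSeq table (GRCh38.p14), and 30004 probes matched. A gene entered a comparison when 1 or both arrays showed it well above background, with a bound where only 1 did. The series holds 1 array per substrate, so genes were called by size. The members and lists were chosen with earlier results of these data known. Signals on each array were given for members at least 1.5-fold different in any comparison and for TFEB, SQSTM1, LAMP1, LAMP2, CTSB and CTSD; from the pathway lists, genes at least 2-fold different on either membrane were named, with HYAL1, HYAL2 and CTBS chosen by name; 1 further gene chosen by name is not reported here. The motif search was chosen after values were seen. The calculation was tested on simulated data. Alternatives were normexp (offset 50) on the median signal, quantile normalization, the 75th percentile over detected probes, the deposited values, scaling to 7 spike-in probes, averaging all probes of a gene, no filter on dim probes, both arrays above background, and a 1.5-fold size. Tools were Python 3.11.15, numpy 2.4.6, pandas 2.3.3, R 4.3.3 and limma 3.58.1; the submitters' processing notes also name limma.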

Additional observations from a re-analysis of the deposited data

How the results depend on the processing

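CTSZ stayed at least 2-fold higher in every comparison under every alternative. Of 857 values of single members under alternatives, 712 moved by less than the spot spread and 145 further. Part of the 712 could not move, so that count does not measure robustness. The rules on dim probes return the main value wherever both arrays are above background. Averaging probes does so for the 31 members with 1 probe. Of the 857 values, 37 changed sign, 22 of them with spike-in scaling, and 0 of these 37 were at least 1.5-fold. The number of members at least 2-fold lower on CS was 0 with normexp, with the deposited values and when both arrays had to be above background, where CTSS lost its call, and 3 at 1.5-fold. On CSHA against TCP, the number lower was 1 with the 75th percentile over detected probes (HEXA), 1 with no filter on dim probes (CTSS) and 4 at 1.5-fold. These 4 were HEXA, CTSD, CTSS and MCOLN1. With spike-in scaling they were at -0.51, -0.22, -0.37 (a bound) and -0.19, all short of 1.5-fold. The number higher was 3 with spike-in scaling and 2 at 1.5-fold. The median on CSHA was 0 with quantile normalization and 0.52 with spike-in scaling, and for CSHA minus CS it was 0.40 with spike-in scaling, where the medians of all genes were 0.56 and 0.45. From CS to CSHA, the number lower was 1 (HEXA) with normexp, quantile normalization, the 75th percentile over detected probes, the deposited values and at 1.5-fold. The precision is limited by 1 array per substrate, and for ARSB, CTSS, SMPD1 and MCOLN1 by signals near background.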

Other observations

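The genes next to CTSZ on chromosome 20 in the RefSeq order were read after its values were seen. Of those on the array within 4 places on either side, 5 were measured on all arrays, and TUBB1 and ZNF831 were not well above background on any. On CS the log2 differences from TCP were -0.03 for NPEPL1, 0.23 for GNAS, -0.04 for NELFCD, -0.03 for ATP5F1E and 0.34 for PRELID3B. On CSHA they were -0.03, 0.68, -0.84, -0.25 and 0.53, in the same order. CTSZ, at 1.62 and 3.74, was the single measured gene of this stretch at least 2-fold different on either membrane.

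Of 8 stromal markers, 2 were above background on TCP, 0 on CS and 1 on CSHA, with summed signals of 97.7, 52.5 and 125.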
